A study of Mus musculus with 3 samples.

Results

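The 10 glycolysis genes Slc2a1, Hk1, Hk2, Pfkl, Pfkp, Aldoa, Pgk1, Eno1, Pkm and Ldha were followed by their symbols across 9 RNA sequencing libraries of cultured mouse heart cells. They are 10 of the 18245 genes in the deposited table, and all 10 passed the filter on low counts in every comparison. The study sequenced 3 kinds of cell from C57BL/6 mice, with 3 libraries each, and the labels give the ventricle epicardium as the tissue of all of them. Cardiosphere-derived cells (CDC) are adherent cells of mesenchymal shape that grow from floating spheres shed by tissue explants, here from mice of 6 weeks and at passage 3. CDC-EpiC are cells of 1 epithelial clone, lifted out of CDC cultures with a cylinder after 2 weeks with SB-431542 (10 µM), which blocks TGF-beta signaling at the type I receptor kinase. Primary epicardial cells (pEpiC) were, by the methods, released by enzymes from the dissected heart of mice of 6 to 8 weeks and used at passage 3. CDC were kept on fibronectin in a medium based on IMDM with 20% serum, and pEpiC on gelatin in a mixture of low-glucose DMEM and M199 with 10% serum. The culture medium and the cell kind therefore cannot be told apart in comparisons with pEpiC. Exposure to SB-431542 and the choice of a single clone cannot be told apart in CDC-EpiC.

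Glycolysis splits glucose into pyruvate and yields ATP without oxygen. Glucose enters the cell through a transporter (Slc2a1), is phosphorylated by a hexokinase (Hk1, Hk2) and committed to the pathway by phosphofructokinase (Pfkl, Pfkp). Aldolase (Aldoa) then cleaves the sugar, and the enzymes of the lower part (Pgk1, Eno1, Pkm) form ATP and pyruvate, which lactate dehydrogenase (Ldha) converts to lactate. Many of these genes are known targets of the hypoxia-inducible factors and of Myc, and the adult heart muscle draws most of its energy from fatty acids instead.

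Libraries of one kind were similar in depth, with total expected counts of 22008833 to 22756045 over all 9, but differed by more than read sampling allows (chi-square statistic 4.89 to 23.0 times its degrees of freedom for pairs within a kind). The labels state that RNA came from 3 separate samples, and the methods speak of biological replicates in a number that is not that of the deposited libraries. Neither says whether the samples were different animals or cultures, so p-values measure the spread between these libraries, which may be technical. Each of the 8 epicardial and 7 mesenchymal marker genes checked had more than 3 counts in at least 1 library of every kind. The summed TPM of the epicardial markers was 388 to 413 in CDC, 3428 to 3892 in CDC-EpiC and 513 to 529.6 in pEpiC. Upk3b (2237 to 2555 TPM) and Lrrn4 (928 to 1070 TPM) made up most of the CDC-EpiC sum. The markers did not share 1 order of the kinds. By mean TPM, Upk3b, Lrrn4, Wt1 and Msln were highest in CDC-EpiC, Tcf21 and Aldh1a2 in pEpiC, and Tbx18 and Krt19 in CDC. The mesenchymal markers summed to 6703 to 8275 TPM in CDC, 3881 to 4437 in CDC-EpiC and 12151 to 13403 in pEpiC, where the sum was highest. Col1a1 (4049 to 4724 TPM) and Col1a2 (4286 to 4740 TPM) made up most of the pEpiC sum. By mean TPM, Col1a1, Col1a2, Pdgfra, Pdgfrb and Postn were highest in pEpiC, and Vim and Thy1 in CDC. Some libraries stood apart. The 10 macrophage markers summed to 1682 TPM in pEpiC library 1 and to 608 and 687 in libraries 3 and 2, against at most 77.4 in CDC and 28.3 in CDC-EpiC. At most 3 counts were found in every library for 5 of these 10 markers in CDC and for 7 in CDC-EpiC, with Fcgr1 at 0 in both and Ptprc at 0 in CDC-EpiC. Genes of red blood cells summed to 162 and 259 TPM in CDC libraries 1 and 2 and to 0.170 in CDC library 3. Cardiomyocyte markers summed to 14.3 to 28.3 TPM in CDC, 16.2 to 20.4 in CDC-EpiC and 282 to 322 in pEpiC, and endothelial markers to at most 14.5 in any kind. Most of the cardiomyocyte sum in pEpiC was Tnnt2, at 279 to 318 TPM. Myh6, Myh7, Actc1 and Pln had at most 0.08 TPM in any pEpiC library, against up to 2.47, 0.31, 3.53 and 0.58 in CDC libraries 1 and 2. In CDC library 3 these genes also had at most 0.08 TPM. Most of the endothelial sum in pEpiC was Tek, at 8.60 to 10.1 TPM. The part of any RNA from such other cells in the glycolysis values was not tested. Without pEpiC library 1, 9 of the 10 glycolysis genes were called in pEpiC vs CDC, where 75.7% of all genes were. In bulk RNA, fewer cells of a type and less RNA per cell cannot be told apart.

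Together the 10 glycolysis genes made up 1.19%, 1.05% and 1.10% of all transcripts (percent of TPM) in CDC libraries 1, 2 and 3. They made up 0.547%, 0.545% and 0.570% in CDC-EpiC and 0.444%, 0.417% and 0.457% in pEpiC. CDC thus gave more than 1% of their transcripts to these genes in every library, and the highest library of the other two kinds gave 0.570%. As a percent of counts, which weights long transcripts more, the pEpiC mean was 0.349%.

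**Figure D1:**
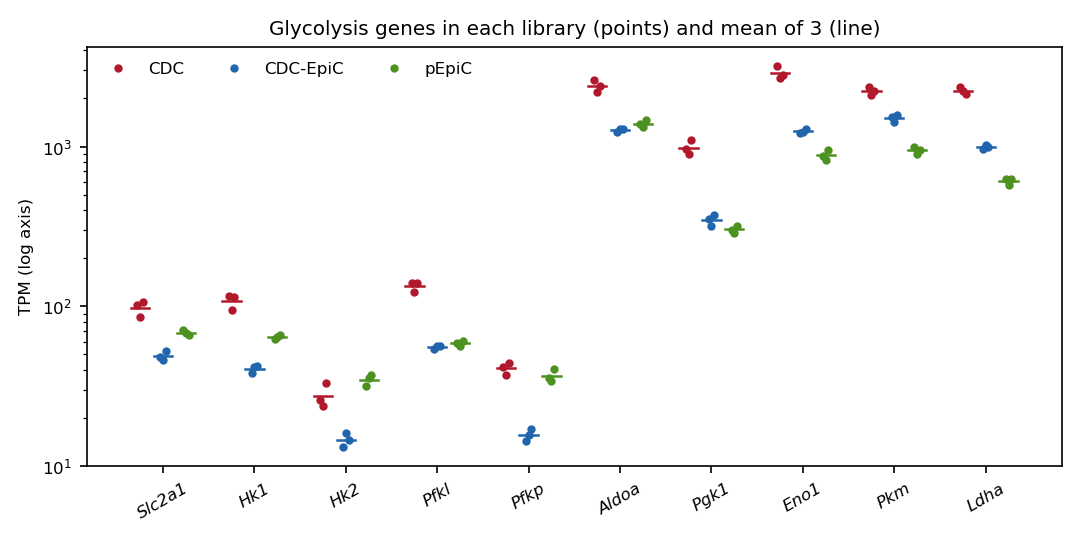
TPM (transcript abundance scaled to transcript length, log axis) of each glycolysis gene in the 3 libraries of CDC (red), CDC-EpiC (blue) and pEpiC (green), with points for libraries and lines for means. CDC has the highest mean for every gene except Hk2, and Ldha runs from 574 TPM in a pEpiC library to 2348 in a CDC library.

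Levels below are TPM, which is scaled to transcript length and to the same sum in every library, whereas changes are log2 differences of TMM-scaled counts from the quasi-likelihood test of edgeR, with p-values adjusted over all genes tested by the Benjamini-Hochberg method. The scales do not agree where pEpiC enters. In pEpiC vs CDC, changes rose with transcript length by 0.447 log2 units per doubling, taken across the 10678 genes that averaged more than 5 CPM. The slope was −0.441 over 10714 genes in CDC-EpiC vs pEpiC and 0.0160 over 10441 genes in CDC-EpiC vs CDC. Testing log2(TPM + 1) with limma moved the median change of all genes from 0.020 to 0.41 in pEpiC vs CDC and from −0.018 to −0.33 in CDC-EpiC vs pEpiC. In the first of these, 74.5% of the genes called were then higher in pEpiC, against 50.8% in counts, and in the second 32.9% were higher in CDC-EpiC, against 49.3%. The glycolysis genes have transcripts of 1489 (Aldoa) to 5556 bases (Hk2), and those of Aldoa, Pgk1, Eno1 and Ldha are the shortest, at up to 1824 bases. Values with this length trend removed are therefore given wherever they change a direction or a call of a gene named with its test.

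Relative to CDC, 9 of the 10 genes fell in pEpiC and none rose, where 38.5% of all 13526 genes tested were called lower, 39.8% higher and 78.3% in either direction. Their fall was at least 2-fold for 8 genes, against 14.4% of all genes. In CDC-EpiC, all 10 fell relative to CDC and 7 of them at least 2-fold, where 68.8% of 12976 genes were called, 34.6% as lower and 12.4% lower by at least 2-fold. Over the genes, the median log2 change was −1.49 in pEpiC vs CDC and −1.27 in CDC-EpiC vs CDC, and the medians of all genes were 0.020 and 0.0027. Both comparisons share the CDC libraries, so a CDC value enters both. On log2(TPM + 1), the changes in pEpiC vs CDC included −0.51 for Slc2a1, −0.74 for Hk1 and −1.87 for Ldha (adjusted p of 0.000362, 2.49e-05 and 2.6e-08 in limma). On that scale Hk2 was higher in pEpiC (0.33, adjusted p = 0.0263 in limma) and Pfkp was not called (−0.15, adjusted p = 0.132 in limma). Slc2a1, Hk1 and Aldoa (−0.79) fell by less than 2-fold there, and 20.9% of all genes were called lower and 60.9% higher. Without CDC libraries 1 and 2, which held red blood cell RNA, all 10 genes were called lower in both comparisons, as were 34.8% of all genes in pEpiC vs CDC and 30.4% in CDC-EpiC vs CDC. That alternative was chosen after seeing the data and sets a single CDC library, assumed to vary like the others, against 3.

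**Figure D2:**
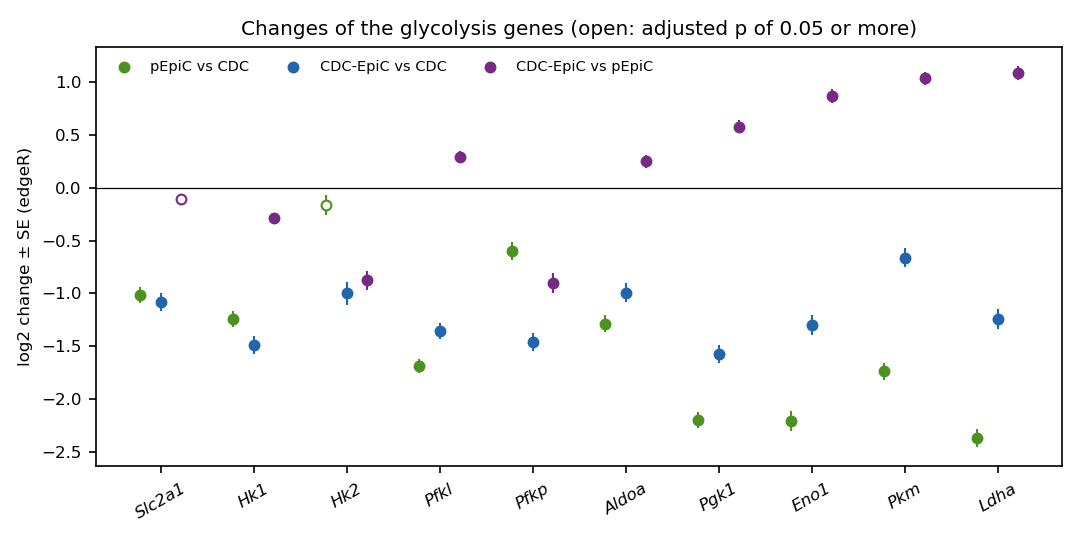
Fitted log2 change with its standard error for each glycolysis gene in pEpiC vs CDC (green), CDC-EpiC vs CDC (blue) and CDC-EpiC vs pEpiC (purple). In counts both comparisons with CDC lie below 0 for every gene, although Hk2 in pEpiC vs CDC was 0.33 on log2(TPM + 1), and open points, which missed the threshold, are Hk2 in pEpiC vs CDC (−0.16) and Slc2a1 in CDC-EpiC vs pEpiC (−0.11). The purple points run from −0.90 for Pfkp to 1.09 for Ldha.

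The start regions of the genes were read from RefSeq promoter windows on GRCm38.p6, the same assembly as the mm10 that the submitters' notes name. All 10 genes matched, with 17 windows, and the 250 bases before each start were searched on both strands for ACGTG, the core of the hypoxia response element, and for CACGTG, the E-box that Myc can bind. Every CACGTG also holds an ACGTG on each strand. ACGTG occurred before at least 1 start of Slc2a1, Hk2, Aldoa, Pgk1, Pkm and Ldha, which is 7 of the 17 windows, with a single match shared by overlapping windows of Aldoa, and in 16.6% of all 32851 windows. CACGTG occurred in 1 window, that of an Ldha start, and in 6.02% of all windows. The window with the most matches (Ldha), the only pair on opposite strands outside an E-box (Pgk1) and the window of the gene that was not called in pEpiC vs CDC (Hk2) are shown 5′ to 3′ on the strand of the gene, with every ACGTG on either strand in capitals.
Ldha: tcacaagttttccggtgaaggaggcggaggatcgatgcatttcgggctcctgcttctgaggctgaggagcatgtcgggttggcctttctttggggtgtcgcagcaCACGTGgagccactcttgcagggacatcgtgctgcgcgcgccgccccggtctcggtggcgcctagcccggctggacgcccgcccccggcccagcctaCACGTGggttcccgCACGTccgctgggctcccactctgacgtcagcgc
Pgk1: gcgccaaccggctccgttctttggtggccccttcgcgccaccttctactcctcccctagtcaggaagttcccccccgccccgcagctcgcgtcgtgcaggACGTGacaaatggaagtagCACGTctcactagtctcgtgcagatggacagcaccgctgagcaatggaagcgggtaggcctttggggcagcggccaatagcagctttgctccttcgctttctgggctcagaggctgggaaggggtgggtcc
Hk2: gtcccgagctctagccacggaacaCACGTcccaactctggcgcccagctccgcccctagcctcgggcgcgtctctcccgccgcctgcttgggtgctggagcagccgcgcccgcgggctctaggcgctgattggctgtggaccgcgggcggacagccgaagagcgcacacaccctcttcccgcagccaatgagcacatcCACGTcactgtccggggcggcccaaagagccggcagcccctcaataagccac
The Ldha stretch is chr7:46845554-46845803 on the + strand, before the annotated start that lies inside the gene's full interval (chr7:46842274-46855627). Its first capitals are a CACGTG that begins 145 bases before the start, the next a CACGTG at 48 bases and the last an ACGTG read on the opposite strand at 34 bases. The Pgk1 stretch is chrX:106186850-106187099 on the + strand, with matches on the gene's strand at 150 bases and on the opposite strand at 131 bases. The Hk2 stretch is chr6:82774455-82774704 on the − strand, with both matches on the opposite strand, at 226 and 52 bases. A match is a run of letters and no evidence of binding.

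Slc2a1 encodes GLUT1, the transporter through which most cultured cells take up glucose (chromosome 4, 119108745 to 119137330, + strand). Its TPM was 101, 85.5 and 107 in CDC, 48.1, 46.0 and 52.5 in CDC-EpiC and 70.7, 67.9 and 66.6 in pEpiC. The CDC libraries lay above all others, and the pEpiC libraries above those of CDC-EpiC. Against CDC the log2 change was −1.02 ± 0.0727 (SE, edgeR adjusted p = 6.15e-07) in pEpiC and −1.08 ± 0.082 (SE, edgeR adjusted p = 1.56e-08) in CDC-EpiC. Between CDC-EpiC and pEpiC it was −0.11 ± 0.0526 (SE, edgeR adjusted p = 0.0857) and missed the threshold. It passed, still lower in CDC-EpiC, with the length trend removed (−0.18, adjusted p = 0.00932 in edgeR) and on log2(TPM + 1) (−0.48, adjusted p = 5.22e-05 in limma).

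The hexokinases trap glucose in the cell as glucose 6-phosphate. Hk1 (chromosome 10, 62268855 to 62379920, − strand), the form found in most tissues, had a TPM of 116, 94.4 and 114 in CDC, 38.4, 41.5 and 42.1 in CDC-EpiC and 62.6, 64.4 and 65.9 in pEpiC. No group overlapped another. Its log2 change was −1.24 ± 0.0741 (SE, edgeR adjusted p = 1.73e-07) in pEpiC vs CDC, −1.49 ± 0.0855 (SE, edgeR adjusted p = 6.07e-10) in CDC-EpiC vs CDC and −0.29 ± 0.0497 (SE, edgeR adjusted p = 0.000382) in CDC-EpiC vs pEpiC. With the length trend removed the last was −0.086 and was not called (adjusted p = 0.125 in edgeR).

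Hk2 (chromosome 6, 82725025 to 82774454, − strand), the inducible form typical of muscle and fast-growing cells, was the gene not called in pEpiC vs CDC. Its TPM was 25.9, 23.9 and 33.2 in CDC, 13.1, 16.0 and 14.7 in CDC-EpiC and 31.6, 35.5 and 37.3 in pEpiC. All 3 pEpiC libraries lay above CDC libraries 1 and 2, CDC library 3 lay inside their range, and CDC-EpiC was lowest. In CDC-EpiC, Hk2 was 1.999-fold lower than in CDC (log2 change −0.9995, SE 0.106, edgeR adjusted p = 7.25e-07) and 1.84-fold lower than in pEpiC (−0.88, SE 0.0883, edgeR adjusted p = 6.93e-06). In pEpiC vs CDC the change was −0.16 ± 0.095 (SE, edgeR adjusted p = 0.139) and was not called. Its direction depended on the scale. It was −0.55 (adjusted p = 0.000114 in edgeR) with the length trend removed and 0.33 (adjusted p = 0.0263 in limma) on log2(TPM + 1), each past the threshold in opposite directions. Without CDC libraries 1 and 2 it was −0.38 (adjusted p = 0.00828 in edgeR). The CDC-EpiC vs pEpiC change was −0.47 (adjusted p = 0.000545 in edgeR) with the length trend removed.

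The balance of the hexokinases differed between the kinds. The ratio of Hk2 to Hk1, in TPM, was 0.256 ± 0.0334 in CDC, 0.359 ± 0.0246 in CDC-EpiC and 0.541 ± 0.0320 in pEpiC (mean ± SD, n = 3), and the ranges did not overlap. Summed over its forms, hexokinase TPM was 136 ± 15.5 in CDC, 55.6 ± 3.30 in CDC-EpiC and 105 ± 1.87 in pEpiC. Hk1 supplied 79.5% of that sum in CDC, 73.2% in CDC-EpiC and 61.5% in pEpiC. Hk3, a form known from leukocytes, had 0 counts in every CDC and CDC-EpiC library and a TPM of 9.36, 3.36 and 3.44 in pEpiC. Against a floor of 3 counts per library it was at least 54.2-fold higher in pEpiC than in CDC, or at least 33.5-fold without pEpiC library 1. Library 1 stood at 2.75-fold the mean of pEpiC libraries 2 and 3 for Hk3 and 2.41-fold to 4.12-fold for the 10 macrophage markers, but 0.868-fold to 1.07-fold for the 10 glycolysis genes.

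Phosphofructokinase catalyzes the step that commits sugar to glycolysis. Pfkl (chromosome 10, 77986947 to 78009807, − strand), the liver type, had a TPM of 140.3, 123 and 139.6 in CDC, 53.8, 56.3 and 56.6 in CDC-EpiC and 59.3, 56.3 and 60.8 in pEpiC. Every CDC library exceeded every other library, while CDC-EpiC and pEpiC overlapped. The log2 change was −1.69 ± 0.0688 (SE, edgeR adjusted p = 1.36e-08) in pEpiC vs CDC and −1.35 ± 0.0764 (SE, edgeR adjusted p = 4.84e-10) in CDC-EpiC vs CDC. In CDC-EpiC vs pEpiC it was 0.29 ± 0.0532 (SE, edgeR adjusted p = 0.00054), which became −0.080 (adjusted p = 0.182 in limma) on log2(TPM + 1).

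Pfkp (chromosome 13, 6579874 to 6649060, − strand), the platelet type, had a TPM of 41.5, 37.3 and 43.9 in CDC, 14.3, 15.6 and 17.0 in CDC-EpiC and 35.6, 34.0 and 40.5 in pEpiC. Here pEpiC overlapped CDC, and CDC-EpiC lay below both. It fell by 0.60 on the log2 scale in pEpiC vs CDC (SE 0.0847, adjusted p = 8.56e-05 in edgeR), but the change was −0.15 on log2(TPM + 1) (adjusted p = 0.132 in limma). In CDC-EpiC the change was −1.46 ± 0.0848 (SE, edgeR adjusted p = 6.85e-10) against CDC and −0.90 ± 0.0929 (SE, edgeR adjusted p = 8.46e-06) against pEpiC. The ratio of Pfkp to Pfkl was 0.304 ± 0.00957 in CDC, 0.281 ± 0.0177 in CDC-EpiC and 0.623 ± 0.0369 in pEpiC (TPM, mean ± SD, n = 3), with CDC and CDC-EpiC overlapping. The muscle type Pfkm was not called in CDC-EpiC vs CDC, with a log2 change of 0.15 ± 0.0725 (SE, edgeR adjusted p = 0.0717). It made up 33.8% of phosphofructokinase TPM in CDC-EpiC, against 15.1% in CDC and 21.1% in pEpiC.

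**Figure D3:**
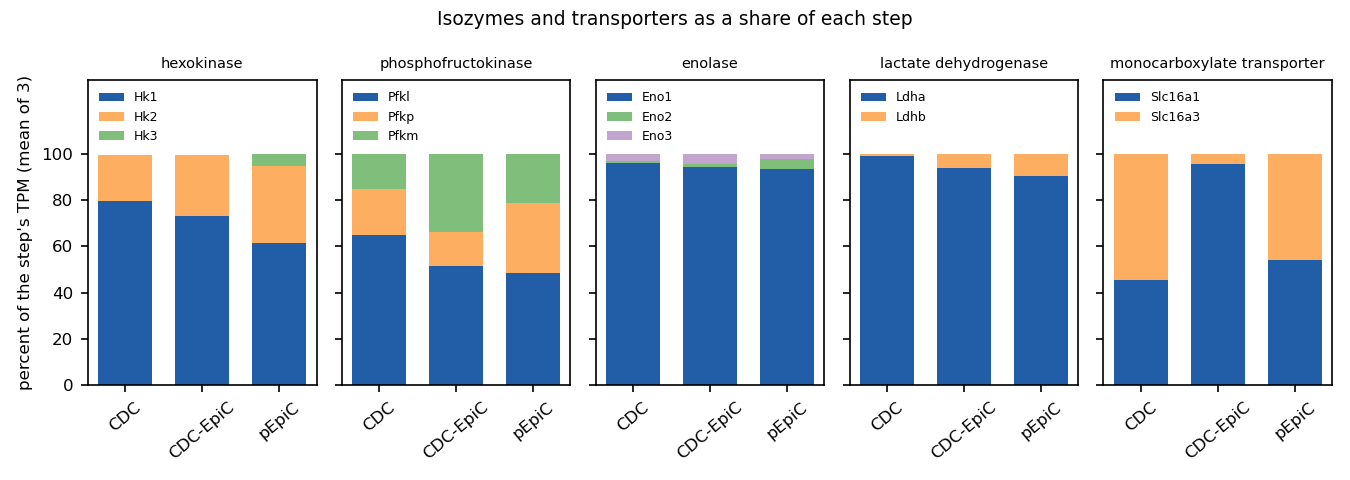
Mean percent of each step's TPM held by its isozymes or transporters in the 3 libraries of each kind (stacked bars from 0, forms under 1% in every kind left out). Hk1 and Pfkl hold smaller shares in pEpiC and CDC-EpiC than in CDC, Ldhb holds 1.01% in CDC and 9.61% in pEpiC, and Slc16a1 holds 95.7% of the monocarboxylate transporters in CDC-EpiC.

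Aldoa (chromosome 7, 126795234 to 126800994, − strand) encodes aldolase A, which cleaves fructose 1,6-bisphosphate. Its TPM was 2617, 2195 and 2383 in CDC, 1236, 1292 and 1282 in CDC-EpiC and 1385, 1317 and 1462 in pEpiC. CDC lay above the rest, and pEpiC lay above CDC-EpiC by a narrow margin. The log2 change was −1.29 ± 0.0836 (SE, edgeR adjusted p = 3.16e-07) in pEpiC vs CDC and −0.99 ± 0.0912 (SE, edgeR adjusted p = 1.40e-07) in CDC-EpiC vs CDC, and the former was −0.79 (adjusted p = 6.11e-06 in edgeR) with the length trend removed. In CDC-EpiC vs pEpiC it was 0.25 ± 0.063 (SE, edgeR adjusted p = 0.00418) in counts, but −0.19 (adjusted p = 0.00881 in edgeR) with the length trend removed, past the threshold in the opposite direction. Aldoa supplied at least 99.4% of aldolase TPM on average in each kind, although Aldoc, the brain form, rose from 0.310 to 0.390 TPM in CDC to 5.11 to 6.05 in CDC-EpiC and 7.50 to 9.63 in pEpiC (log2 change 3.88, SE 0.198, edgeR adjusted p = 1.50e-10 and 4.01, SE 0.199, edgeR adjusted p = 5.02e-08).

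Pgk1 (chromosome X, 106187100 to 106203699, + strand) encodes phosphoglycerate kinase, the first step of glycolysis that forms ATP. Its TPM was 960.3, 896 and 1095 in CDC, 354, 317 and 372 in CDC-EpiC and 302, 289 and 318 in pEpiC. The CDC libraries were far above both other kinds, which overlapped in TPM. Pgk1 was 4.59-fold lower in pEpiC than in CDC (log2 change −2.20, SE 0.074, edgeR adjusted p = 4.08e-09) and 2.98-fold lower in CDC-EpiC (−1.58, SE 0.0867, edgeR adjusted p = 3.52e-10), the latter being the largest fall of the 10 genes in CDC-EpiC. In CDC-EpiC vs pEpiC the change was 0.58 ± 0.0636 (SE, edgeR adjusted p = 1.33e-05), and 0.28 (adjusted p = 0.00215 in edgeR) with the length trend removed.

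Eno1 (chromosome 4, 150236708 to 150248879, + strand), the main enolase outside nerve and muscle, had the highest TPM of the 10 genes in CDC. Its TPM was 3191, 2684 and 2797 in CDC, 1216, 1225 and 1295 in CDC-EpiC and 879, 828 and 947 in pEpiC. The kinds were ordered CDC, CDC-EpiC and pEpiC with no overlap. The log2 change was −2.21 ± 0.0936 (SE, edgeR adjusted p = 1.70e-08) in pEpiC vs CDC, −1.30 ± 0.0942 (SE, edgeR adjusted p = 9.42e-09) in CDC-EpiC vs CDC and 0.87 ± 0.0653 (SE, edgeR adjusted p = 7.26e-07) in CDC-EpiC vs pEpiC. With the length trend removed the last was 0.55 (adjusted p = 1.46e-05 in edgeR). Eno1 supplied 96.2% of enolase TPM in CDC, 94.5% in CDC-EpiC and 93.5% in pEpiC. Eno3, the muscle form, fell in pEpiC vs CDC (−2.73), whereas Eno2, the neuronal form, rose (0.70).

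Pkm (chromosome 9, 59656576 to 59679372, + strand) encodes the M1 and M2 forms of pyruvate kinase by alternative splicing, which a table of genes does not separate. Its TPM was 2362, 2105 and 2213 in CDC, 1523, 1416 and 1571 in CDC-EpiC and 992, 902 and 947 in pEpiC. CDC-EpiC lay between CDC and pEpiC without overlap. Pkm changed least of the 10 genes in CDC-EpiC vs CDC, where it was 1.58-fold lower (log2 change −0.66, SE 0.0875, edgeR adjusted p = 7.56e-06), and was not called against a 1.5-fold change (adjusted p = 0.218 in edgeR). It was 3.34-fold lower in pEpiC than in CDC (−1.74, SE 0.0776, edgeR adjusted p = 2.41e-08) and 2.05-fold higher in CDC-EpiC than in pEpiC (1.04, SE 0.0634, edgeR adjusted p = 1.65e-07).

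Ldha (chromosome 7, 46842274 to 46855627, + strand) encodes the lactate dehydrogenase subunit that favors lactate formation. Its TPM was 2348, 2212 and 2118 in CDC, 969.7, 1023 and 994 in CDC-EpiC and 627, 574 and 628 in pEpiC. It showed the largest fall of the 10 genes in pEpiC, 5.18-fold against CDC (log2 change −2.37, SE 0.0857, edgeR adjusted p = 6.33e-09). In CDC-EpiC it was 2.37-fold lower than in CDC (−1.24, SE 0.0906, edgeR adjusted p = 9.75e-09) and 2.13-fold higher than in pEpiC (1.09, SE 0.0646, edgeR adjusted p = 1.33e-07), or 0.71 on the log2 scale (adjusted p = 1.39e-06 in edgeR) with the length trend removed.

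Ldhb, the subunit typical of heart muscle, rose in both kinds against CDC. Its TPM was 21.8, 20.9 and 24.9 in CDC, 65.9, 66.4 and 68.5 in CDC-EpiC and 65.4, 65.9 and 62.6 in pEpiC. The CDC libraries lay below all others, with a log2 change of 1.01 ± 0.0676 (SE, edgeR adjusted p = 3.86e-07) in pEpiC and 1.49 ± 0.0776 (SE, edgeR adjusted p = 1.88e-10) in CDC-EpiC against CDC. The ratio of Ldhb to Ldha was 0.0102 ± 0.00140 in CDC, 0.0673 ± 0.00207 in CDC-EpiC and 0.106 ± 0.00774 in pEpiC (TPM, mean ± SD, n = 3), without overlap. Ldha still held 90.4% of the summed TPM in pEpiC. This ratio, like that of the lactate transporters, was chosen after its values were seen.

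Between CDC-EpiC and pEpiC, 9 of the 10 genes were called, where 81.9% of 13547 genes were. The genes from Aldoa on (Aldoa, Pgk1, Eno1, Pkm and Ldha) and Pfkl were higher in CDC-EpiC, and Hk1, Hk2 and Pfkp were lower, against 40.3% and 41.5% of all genes. With the length trend removed, 5 were higher and 4 lower, Aldoa having turned and Slc2a1 having joined the lower genes while Hk1 was lost, against 38.1% and 42.0% of all genes. On log2(TPM + 1), 4 were higher (Pgk1, Eno1, Pkm and Ldha) and 4 lower (Slc2a1, Hk1, Hk2 and Pfkp), where 27.2% and 55.7% of all genes were, and Pfkl and Aldoa lay below 0 without a call. Against a 1.5-fold change 5 were called, namely Eno1, Pkm and Ldha as higher and Hk2 and Pfkp as lower, where 23.1% and 25.5% of all genes were. Hk2, Pfkp, Pgk1, Eno1, Pkm and Ldha kept their direction and call in counts, with the length trend removed and on log2(TPM + 1).

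**Figure D4:**
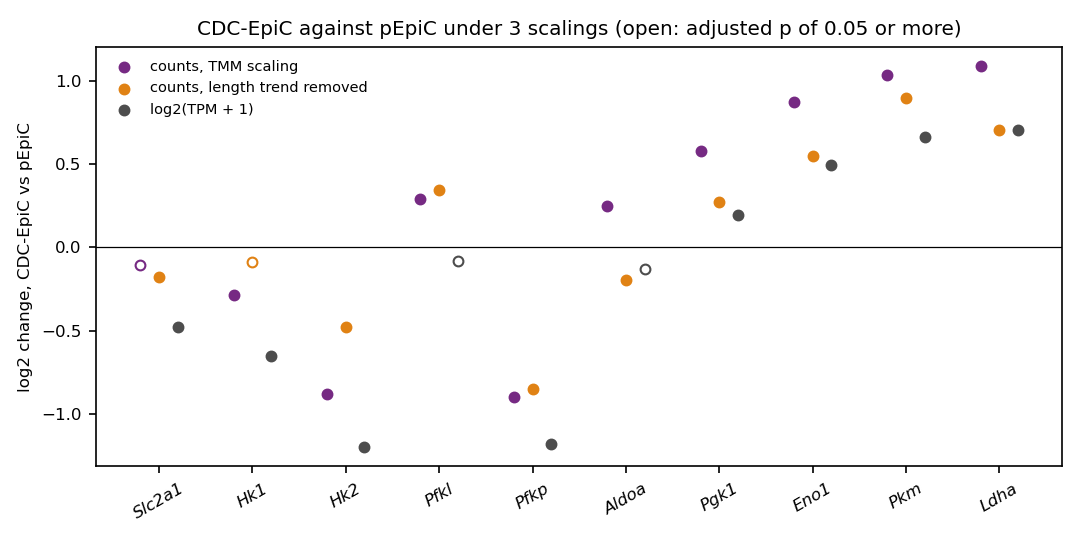
Log2 change of each glycolysis gene in CDC-EpiC vs pEpiC from TMM-scaled counts (purple), from counts with the length trend removed (orange) and from log2(TPM + 1) in limma (gray), with open points at an adjusted p of 0.05 or more. Pgk1, Eno1, Pkm and Ldha lie above 0 and Hk1, Hk2 and Pfkp below 0 on every scale, while Aldoa runs from 0.25 to −0.19.

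The other genes of the pathway were taken from a list of 25, of which 24 are in the table and 17 were tested in each comparison. In CDC-EpiC vs CDC, Hkdc1 was tested in place of Hk3. In pEpiC vs CDC, 9 fell and 5 rose, and in CDC-EpiC vs CDC, 8 fell and 4 rose. Hk3, counted among the 5, had 0 counts in CDC and passed the filter through pEpiC alone. Its direction was thus set by the filter. The median log2 changes of the 17 genes tested in each were −0.50 and −0.24, the first being the same with Hk3 at its lower bound. Of all genes tested, 38.5% fell and 39.8% rose in pEpiC vs CDC, and 34.6% and 34.2% in CDC-EpiC vs CDC. In CDC-EpiC vs pEpiC, 41.5% of all genes were lower and 40.3% higher. The same shares stand beside the counts of the gene lists below. Gapdh, whose product makes the first reducing equivalents of the pathway, had a TPM of 10678, 9331 and 9337 in CDC, 6726, 6442 and 6613 in CDC-EpiC and 3053, 2926 and 3176 in pEpiC. This common reference gene was 4.55-fold lower in pEpiC and 1.57-fold lower in CDC-EpiC than in CDC (log2 change −2.19, SE 0.0874, edgeR adjusted p = 1.19e-08 and −0.65, SE 0.0962, edgeR adjusted p = 2.37e-05). Tpi1, which interconverts the triose phosphates, changed by −2.60 in pEpiC and −0.69 in CDC-EpiC, and the isomerase Gpi1 by −1.26 and −0.51. The mutase Pgam1 fell in both, with a log2 change of −1.72 in pEpiC and −1.45 in CDC-EpiC.

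In CDC-EpiC vs pEpiC, 8 of the 17 genes tested were higher and 6 lower, with a median of 0.23. Hk3 is among the 6, again tested through pEpiC alone. Tpi1 (1.87), Gapdh (1.49) and Eno3 (1.85) were among the higher, as were Gpi1 (0.71) and Pfkm (0.90), which act before aldolase. The enolase Eno2 was lower (−0.86) and the mutase Pgam2 was not called (0.23), but was lower with the length trend removed (−0.54, adjusted p = 0.0127 in edgeR).

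Monocarboxylate transporters carry lactate across the membrane. Slc16a3 (MCT4), known as the exporter of glycolytic cells, had a TPM of 43.0, 38.0 and 38.5 in CDC, 3.47, 3.90 and 4.70 in CDC-EpiC and 17.1, 10.7 and 14.0 in pEpiC. It fell 10.2-fold in CDC-EpiC and 4.003-fold in pEpiC against CDC (log2 change −3.36, SE 0.109, edgeR adjusted p = 8.23e-13 and −2.001, SE 0.148, edgeR adjusted p = 7.82e-07). Slc16a1 (MCT1) had a TPM of 30.6, 31.3 and 38.3 in CDC, 92.0, 83.4 and 94.1 in CDC-EpiC and 14.0, 17.8 and 17.3 in pEpiC. It rose in CDC-EpiC vs CDC (1.35, SE 0.0822, edgeR adjusted p = 1.17e-09) and fell in pEpiC vs CDC (−1.53, SE 0.0921, edgeR adjusted p = 1.85e-07). The ratio of Slc16a1 to Slc16a3 was 22.6 ± 3.42 in CDC-EpiC, 0.843 ± 0.142 in CDC and 1.24 ± 0.418 in pEpiC (TPM, mean ± SD, n = 3), with CDC and pEpiC overlapping.

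Enzymes that set fructose 2,6-bisphosphate, the activator of phosphofructokinase, were measured for 5 genes. In pEpiC vs CDC 1 rose and 2 fell, in CDC-EpiC vs CDC 2 rose and 2 fell, and in CDC-EpiC vs pEpiC 2 were higher and 1 lower. Pfkfb3, which makes the activator, rose by 0.46 in pEpiC and 0.40 in CDC-EpiC on the log2 scale, and Tigar, which removes it, changed by −1.55 and −0.78. A list of 13 genes held the mitochondrial pyruvate carriers, the pyruvate dehydrogenase subunits and the kinases and phosphatases that switch this enzyme off and on. Counted together, 7 fell and 2 rose in pEpiC vs CDC and 8 fell and 3 rose in CDC-EpiC vs CDC. In CDC-EpiC vs pEpiC, 7 were higher and 5 lower. The pyruvate dehydrogenase kinase Pdk1, a hypoxia target, changed by −1.55 in pEpiC and −0.47 in CDC-EpiC against CDC. Its relative Pdk2 rose in both, by 0.42 and 1.38.

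Genes known to regulate the pathway moved in both directions. Of 15, 6 fell and 5 rose in pEpiC vs CDC, 5 fell and 10 rose in CDC-EpiC vs CDC, and 5 were higher and 8 lower in CDC-EpiC vs pEpiC. Mlxipl, at 1, 3 and 5 counts in the CDC libraries, passed the filter only through the other kind. Its direction against CDC was thus set by the filter. Hif1a, the oxygen-regulated factor, whose control lies largely at the protein, had a TPM of 148, 130.2 and 192 in CDC, 76.2, 82.2 and 77.0 in CDC-EpiC and 209, 220.3 and 217 in pEpiC. The CDC-EpiC libraries lay below all others, with a log2 change of −1.07 ± 0.104 (SE, edgeR adjusted p = 2.82e-07) against CDC. In pEpiC vs CDC the change was −0.038 ± 0.0979 (SE, edgeR adjusted p = 0.736), not called, but it passed the threshold in opposite directions on other scales. It was −0.24 (adjusted p = 0.026 in edgeR) with the length trend removed and −0.28 (adjusted p = 0.00361 in edgeR) without CDC libraries 1 and 2, against 0.47 (adjusted p = 0.00486 in limma) on log2(TPM + 1). Epas1, which encodes the related HIF-2alpha, rose in both kinds against CDC (2.70 in pEpiC and 2.15 in CDC-EpiC).

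Myc had a TPM of 96.5, 84.5 and 94.8 in CDC, 50.5, 75.2 and 68.9 in CDC-EpiC and 43.0, 50.7 and 60.0 in pEpiC. It fell by 1.35 in pEpiC and by 0.58 in CDC-EpiC on the log2 scale, while Mycn rose 8.63-fold in CDC-EpiC vs CDC (log2 change 3.11, SE 0.159, edgeR adjusted p = 1.59e-10) and was 11.8-fold higher there than in pEpiC. Txnip and Arrdc4 encode arrestins that restrain glucose uptake and are induced by glucose metabolites. Txnip had a TPM of 60.5, 55.9 and 70.9 in CDC, 8.88, 8.22 and 9.57 in CDC-EpiC and 72.2, 71.5 and 70.0 in pEpiC. It was 7.41-fold lower in CDC-EpiC than in CDC (−2.89, SE 0.0891, edgeR adjusted p = 4.98e-13). Arrdc4 changed by −3.17 in CDC-EpiC and −1.55 in pEpiC against CDC.

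Hypoxia response genes outside glycolysis, a list of 15, were split between higher and lower in pEpiC and mostly lower in CDC-EpiC. In pEpiC vs CDC, 6 rose and 7 fell, with a median log2 change of 0.033. In CDC-EpiC vs CDC, 11 fell and 4 rose, with a median of −1.17, and in CDC-EpiC vs pEpiC 3 were higher and 8 lower. Adm, which encodes the vasodilator adrenomedullin, had a TPM of 68.0, 60.3 and 71.6 in CDC, 5.93, 7.39 and 8.76 in CDC-EpiC and 494, 492 and 483 in pEpiC. It was 5.19-fold higher in pEpiC and 9.56-fold lower in CDC-EpiC than in CDC (2.38, SE 0.0643, edgeR adjusted p = 1.01e-09 and −3.26, SE 0.112, edgeR adjusted p = 1.61e-12).

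Plod2, a lysyl hydroxylase of collagen, had a TPM of 67.5, 63.3 and 81.8 in CDC, 22.8, 24.4 and 24.0 in CDC-EpiC and 342, 375 and 382 in pEpiC, and so was highest in pEpiC. The stress gene Ndrg1 was highest in CDC-EpiC and lowest in pEpiC, with a TPM of 94.3, 76.9 and 109 in CDC, 192, 210.0 and 207 in CDC-EpiC and 27.4, 26.9 and 28.1 in pEpiC. Vegfa, the endothelial growth factor, rose in pEpiC (0.45) and fell in CDC-EpiC (−1.85) against CDC, and Bnip3, a gene of mitochondrial removal, fell in both (−1.49 and −1.61). Egln3, a prolyl hydroxylase of the HIF proteins, changed by −2.11 in pEpiC vs CDC and the oxidase Ero1l by −2.06 in CDC-EpiC vs CDC. Car9, a carbonic anhydrase and classical hypoxia marker, rose in CDC-EpiC vs CDC (3.31) from at most 1.04 TPM to 8.03 to 11.1.

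**Figure D5:**
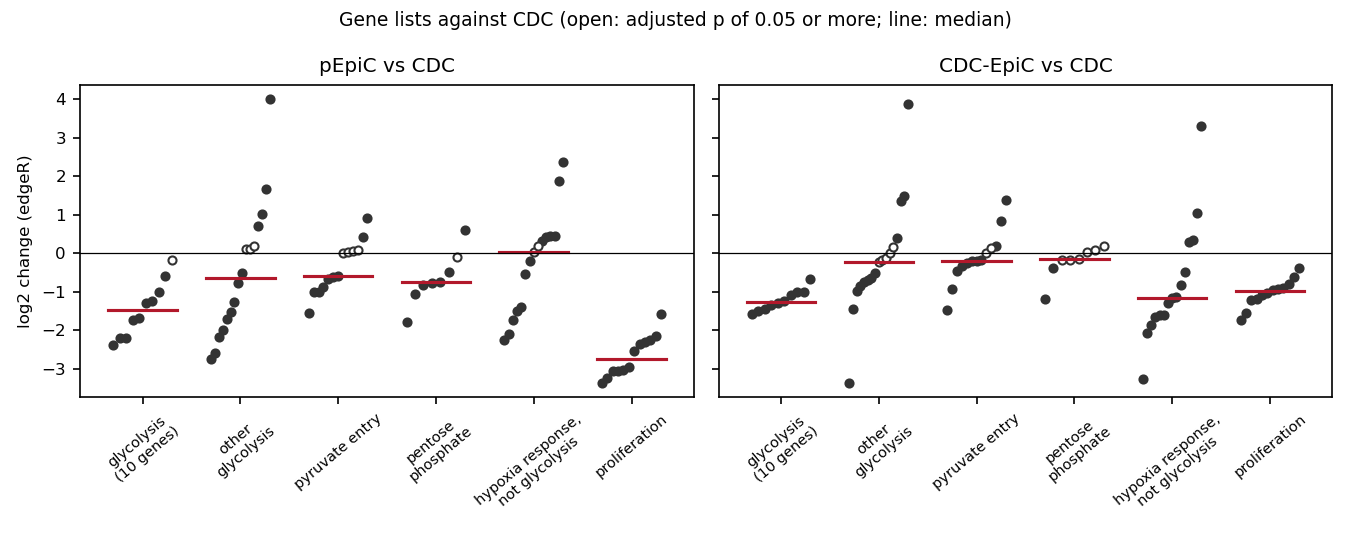
Log2 changes of the genes of each list in pEpiC vs CDC (left) and CDC-EpiC vs CDC (right), with red lines at the median over the genes tested and Hk3, which was at 0 in CDC, neither plotted nor in the median. The 10 glycolysis genes lie below 0 in both panels, whereas the hypoxia response genes run from −2.26 to 2.38 on the left and from −3.26 to 3.31 on the right.

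Proliferation genes fell with the glycolysis genes. All 12 were lower in both kinds than in CDC. Their median log2 change was −2.75 in pEpiC and −0.99 in CDC-EpiC, and 11 were higher in CDC-EpiC than in pEpiC. Their summed TPM was 965 to 988 in CDC, 493 to 624 in CDC-EpiC and 206 to 263 in pEpiC, so the groups did not overlap. Cdk1, the kinase that drives mitosis, changed by −3.23 in pEpiC vs CDC and 2.23 in CDC-EpiC vs pEpiC, and the replication gene Mcm5 by −3.36 and 2.52. Rrm2, a subunit of ribonucleotide reductase, changed by −1.74 in CDC-EpiC vs CDC. The part of cell division in the glycolysis values was not tested.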

How the data were processed

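RNA of 3 kinds of mouse cell was read on a BGISEQ-500 after oligo(dT) selection, and 3 library columns per kind were deposited in a single table of 18245 genes. Per gene and library the authors deposited an expected count, the estimate of its reads, and 29.3% to 31.2% of the values in a library are not whole, together with TPM and FPKM, which are scaled to transcript length and library. The submitters' processing notes name HISAT2 2.0.4, Bowtie2 2.2.5, RSEM 1.2.12, DESeq2 1.4.5 and mm10. The annotation and the use of strand are not given in the sources used here, so genes with near-identical copies, such as Aldoa, Gapdh and Eno1, depend on how RSEM divided their reads. The authors' columns of means were not used.

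Rounded expected counts were tested with edgeR 4.0.16 (R 4.3.3). The 6 libraries of each pair of kinds were fitted over all genes that passed filterByExpr with a minimum count of 10 and a minimum total of 15, using TMM scaling, glmQLFit and glmQLFTest, with an adjusted p of 0.05 as threshold. A standard error is the absolute log2 change divided by the square root of its F statistic. The fit was tested on simulated data before use. Alternatives used limma 3.58.1 and DESeq2 1.42.0. Removing the length trend means an offset per library, a smooth curve (lowess) and not a straight slope. The curve followed the library's log2 CPM, relative to the mean of the libraries, along log2 transcript length. It was fitted on genes that averaged more than 5 CPM. Python 3.11.15 with pandas 2.3.3 and NumPy 2.4.6 made tables, and matplotlib 3.10.9 the figures. The floor of 3 counts covers counting error alone.

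The 10 genes, the other lists and the tests were chosen with earlier results of these data known. All 10 were named, and from each other list up to 3 genes per comparison with the largest change past the threshold and 10 CPM or more in the higher of both groups, of which some are left out. Each other gene or comparison of a gene, among them Gpi1, Hk3, Aldoc, Eno2, Pfkm, Vegfa and Bnip3, was named after its values were seen. A search for genes of like pattern was planned but is not reported, since the libraries fall into 3 separate kinds and a correlation over them would rest on those. Deviations of same-numbered libraries of different kinds correlated at −0.0999 to 0.160, with 3 of 9 pairs above 0.1. Libraries of different number gave −0.157 to 0.133. No pairing was assumed.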

Additional observations from a re-analysis of the deposited data

How the results depend on the processing

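Among 560 values of the 10 genes under alternative settings, 537 kept their direction and their side of the threshold, 9 lost a call, 7 gained one and 7 changed sign. The reversals came from TPM or the length trend. On log2(TPM + 1) and log2(TPM + 0.1), the log2 change was 0.33 and 0.34 for Hk2 in pEpiC vs CDC, and in CDC-EpiC vs pEpiC it was −0.080 and −0.081 for Pfkl and −0.13 with both for Aldoa, which was −0.19 with the length trend removed. Hif1a in pEpiC vs CDC, not called in counts, changed to 0.075 with library size alone, 0.0061 with all 9 libraries in 1 fit, 0.47 and 0.48 on log2(TPM + 1) and log2(TPM + 0.1) (adjusted p of 0.00486 and 0.00429 in limma), 0.092 on log2(FPKM + 1) and −0.14 to 0.085 with single libraries left out. Pgam2 in CDC-EpiC vs pEpiC was −0.13 and −0.14 on log2(TPM + 1) and log2(TPM + 0.1) and −0.54 with the length trend removed. Hif1a gained a call in the negative direction with the length trend removed (−0.24) and without CDC libraries 1 and 2 (−0.28). Against a 1.5-fold change, 5 of the 10 genes were called in CDC-EpiC vs pEpiC, where 48.6% of all genes were. In CDC-EpiC vs CDC, 7 of the other glycolysis genes were called against that change, where 28.2% of all genes were. The share of the 10 genes in pEpiC was 0.349% of counts. In each of these cases other than the stricter test the cause was not tested. The median change of all genes in pEpiC vs CDC was 0.086 on log2(FPKM + 1), against 0.41 on log2(TPM + 1). In CDC-EpiC vs pEpiC these medians were −0.019 and −0.33.

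Leaving out each library in turn gave 9 calls among the 10 genes in pEpiC vs CDC, 10 in CDC-EpiC vs CDC and 9 in CDC-EpiC vs pEpiC every time, while 73.4% to 78.5%, 62.6% to 68.6% and 78.4% to 80.4% of all genes were called. With the library number as a replicate block the counts were again 9, 10 and 9, where 78.4%, 68.1% and 81.9% of all genes were called. The numbers are not known to pair the libraries. No spread between animals, clones or media can be had from these libraries. Depth did not limit the 10 genes, whose lowest count in a library is well above the filter.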

Other observations

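Of 8 genes of the pentose phosphate pathway, which makes NADPH and ribose, 6 fell and 1 rose in pEpiC vs CDC. In CDC-EpiC vs CDC 2 fell and none rose, and in CDC-EpiC vs pEpiC 6 were higher and 2 lower. Taldo1, the transaldolase, had a TPM of 302, 290.4 and 277 in CDC, 284, 266 and 273 in CDC-EpiC and 122, 114 and 123 in pEpiC. The pEpiC libraries lay below all others, with a log2 change of −1.78 ± 0.0771 (SE, edgeR adjusted p = 1.97e-08) in pEpiC vs CDC, and CDC-EpiC was higher than pEpiC by 1.58. G6pdx, the entry enzyme, changed by −1.07 and 0.85 in the same comparisons.

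Of 18 genes of other branches of glucose use, 9 fell and 5 rose in pEpiC vs CDC, 11 fell and 4 rose in CDC-EpiC vs CDC, and 7 were higher and 9 lower in CDC-EpiC vs pEpiC. Gfpt2, an entry enzyme of the hexosamine branch that supplies sugar for glycoproteins, had a TPM of 137, 126 and 141 in CDC, 35.3, 31.0 and 37.7 in CDC-EpiC and 118, 118 and 116 in pEpiC. It was 4.11-fold lower in CDC-EpiC than in CDC (log2 change −2.04, SE 0.0809, edgeR adjusted p = 8.21e-12). The muscle glycogen synthase Gys1 fell in pEpiC (−1.48) and CDC-EpiC (−1.60), and the sorbitol dehydrogenase Sord was 3.12-fold higher in CDC-EpiC than in CDC and 2.67-fold higher than in pEpiC. Of 7 gluconeogenesis genes, 3 were tested, of which 2 fell and 1 rose in pEpiC vs CDC and 2 fell in CDC-EpiC vs CDC, while 1 was higher and 1 lower in CDC-EpiC vs pEpiC.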
